A study of Saccharomyces cerevisiae with 4 samples.

Results

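The mitochondrial genome of Saccharomyces cerevisiae encodes 7 subunits of the respiratory chain and ATP synthase, a protein of the mitochondrial ribosome and several proteins read from introns. Described here are 10 of its reading frames, taken by systematic name from a table of ribosome footprint counts with 6600 coding sequences. They are COX1 (Q0045), COX2 (Q0250) and COX3 (Q0275) of cytochrome c oxidase, COB (Q0105) of the bc1 complex, ATP6 (Q0085), ATP8 (Q0080) and OLI1 (Q0130) of ATP synthase, VAR1 (Q0140) of the mitochondrial ribosome, and the intron frames AI1 (Q0050) and AI2 (Q0055). The table held 28 rows of mitochondrial name in all, and all 10 chosen rows had counts in every library. In ribosome profiling, the pieces of mRNA that ribosomes shield from nuclease are sequenced and counted per frame.

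The series set a wild type (WT) of strain 74D-694, a laboratory strain used in work on translation termination and prions, against a mutant of the same strain that carries an in-frame OAZ1. OAZ1 encodes antizyme, which sends ornithine decarboxylase to the proteasome, and its natural frame is completed by a ribosomal frameshift. Both groups were grown in synthetic medium to mid-exponential phase and received cycloheximide at 50 µg/mL, and each had 2 libraries. The question for these frames is whether their footprint counts differed between the strains. RNA-seq was not analysed here, so mRNA level and ribosomes per mRNA cannot be told apart. The labels do not call the replicates separate cultures, and p-values therefore measure the spread between libraries that may be technical repeats.

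Mitochondrial mRNAs are read by the organelle's own ribosomes, which are bound to the inner membrane and insert most of their products into it as they are made. Cycloheximide stops cytosolic ribosomes and does not act on mitochondrial ones, and TGA, a stop codon in nuclear genes, is read as tryptophan. The mRNAs need nuclear-encoded activators for translation, and COX1 and COB need their introns spliced out, in which the intron-encoded maturases take part. The labels name no isolation of mitochondria and no inhibitor of mitochondrial ribosomes. Fragment lengths were not analysed here, so whether the counts came from mitochondrial ribosomes was not tested.

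Library totals were 29671498 and 10202557 counts in WT replicates 1 and 2 and 7571371 and 2826895 counts in mutant replicates 1 and 2. CPM, counts scaled to a library total of 1000000, are shares of these totals. A rough upper limit for a count of 0, taken as 3 counts, equals 0.101, 0.294, 0.396 and 1.06 CPM in that order. OAZ1, the exchanged gene, stood at 12.8 and 10.8 CPM in WT against 21.1 and 17.3 CPM in mutant and was not called (edgeR adjusted p = 0.755). WT replicate 1 was unlike the rest: over 4603 genes its log2 difference from WT replicate 2 had an SD of 0.509, where that from WT replicate 2 to mutant replicate 1 had 0.223. Log2 fold changes are therefore given with and without it.

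The sequences show how these frames differ from nuclear genes and from each other. Coordinates and bases are those of the mitochondrial chromosome (MT, 85779 bases, plus strand) of the RefSeq R64 assembly of the reference strain, not of 74D-694. OLI1 is printed whole because its CPM was lowest in WT replicate 1, where every other frame was highest. Its start and stop codons are in capitals (MT:46723-46953). COX2 is shown from codon 77 to codon 126 because it had the most counts in WT replicate 1 and was second to OLI1 in the other libraries, with its 3 TGA codons of that stretch in capitals (MT:73986-74135). The shared opening of COX1, AI1 and AI2 is shown with its start codon in capitals (MT:13818-13986), because a read from it belongs to several frames.
OLI1: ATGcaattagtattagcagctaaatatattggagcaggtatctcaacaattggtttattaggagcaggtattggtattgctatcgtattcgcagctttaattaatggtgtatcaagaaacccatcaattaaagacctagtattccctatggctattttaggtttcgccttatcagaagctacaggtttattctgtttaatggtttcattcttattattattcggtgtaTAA
COX2 codons 77 to 126: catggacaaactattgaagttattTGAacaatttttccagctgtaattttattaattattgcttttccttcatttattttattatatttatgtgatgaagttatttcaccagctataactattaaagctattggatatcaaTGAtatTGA
COX1, AI1 and AI2 opening: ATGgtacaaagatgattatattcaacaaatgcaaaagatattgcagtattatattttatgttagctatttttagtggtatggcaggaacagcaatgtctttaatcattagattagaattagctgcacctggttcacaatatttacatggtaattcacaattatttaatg

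OLI1 is short, with 231 bases in 1 part, a GC content of 33.3% and no TGA codon. COX2 has 756 bases (MT:73758-74513) and 5 TGA codons, and COX3 has 810 bases (MT:79213-80022) and 9. The last 19 bases of COX2 (MT:74495-74513) also open the frame Q0255, with the stop codon of COX2 in capitals: atgattaaatgaacaaTAA. ATP8 has 147 bases (MT:27666-27812), ATP6 780 bases (MT:28487-29266) and VAR1 1197 bases (MT:48901-50097). GC content was lowest in VAR1, at 10.4%, and none of 5898 nuclear coding sequences, whose median was 39.8%, was lower.

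COX1, AI1 and AI2 start at the same base, and this bears on every count given for them. COX1 spans MT:13818-26701 in 8 parts with 1605 coding bases, of which 972 (60.6%) also lie in the intron frames AI1 to AI5_ALPHA. AI1 runs on from the first COX1 part into the intron (MT:13818-16322, 2505 bases), and AI2 does so after the second part (MT:13818-18830, 2565 bases). The 169 bases printed above belong to 6 annotated frames. COB (MT:36540-43647, 6 parts, 1158 bases) shares 756 bases (65.3%) with its own intron frames BI2, BI3 and BI4.

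How the authors counted reads on shared bases is not given in the labels. AI5_ALPHA contains all 972 shared bases of COX1 and had 3, 3, 1 and 1 counts in WT replicates 1 and 2 and mutant replicates 1 and 2. BI3 holds 506 of the bases of COB and had 3, 1, 1 and 0 counts. If reads were counted on every frame they match, no more than these counts could lie on those bases, and if they were dropped, none would. By either way of counting, most counts of COX1 and COB in WT replicate 1 would lie on the bases outside them. Windows of 28 bases that also occur in the nuclear genome were 9 of 1578 in COX1, 8 of 753 in ATP6 and 30 of 1170 in VAR1, and 0 in the other frames.

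**Figure D1:**
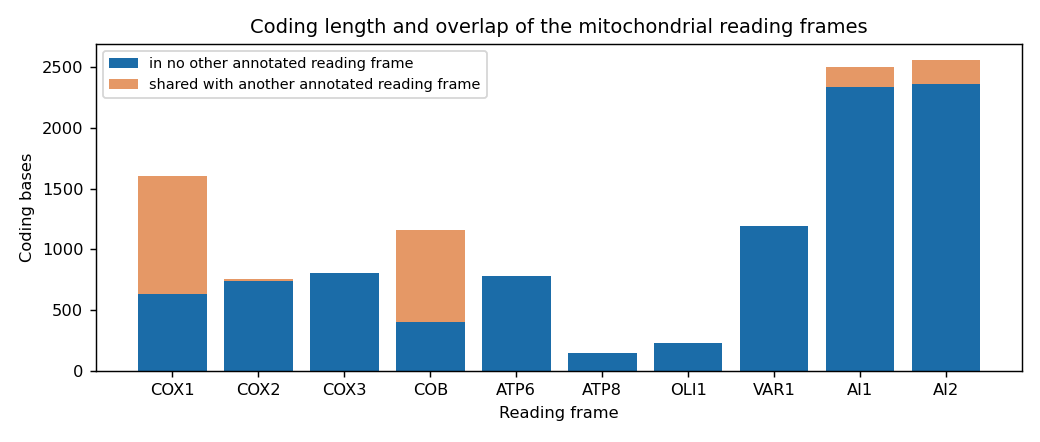
Coding bases of each mitochondrial reading frame in the reference annotation (vertical axis), split into bases in no other annotated frame (blue) and bases shared with another frame (orange). COX1 and COB are the frames with most of their bases shared, 60.6% and 65.3%.

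The 10 frames together took a very small share of the footprints, and that share was highest in WT replicate 1. Summed over the frames, WT replicates 1 and 2 had 2849 and 497 counts, and mutant replicates 1 and 2 had 374 and 203. As shares of the library these were 96.0 CPM (95% exact binomial interval 92.5 to 99.6) and 48.7 CPM (44.5 to 53.2) in WT and 49.4 CPM (44.5 to 54.7) and 71.8 CPM (62.3 to 82.4) in mutant. WT replicate 2 and mutant replicate 1 had overlapping intervals, with mutant replicate 2 above both and WT replicate 1 above all. The groups overlapped. These intervals, like all others here, describe counting error alone, as the reads carried no molecular identifiers that the labels mention.

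COX2, COX3 and OLI1 made up most of these counts, 71.2% and 68.4% in WT and 71.4% and 84.7% in mutant. Within them the balance shifted between libraries. OLI1 held 11.6% of the summed counts in WT replicate 1, 31.2% in WT replicate 2, and 36.6% and then 45.3% in the mutant libraries. COX2 held 43.0% in WT replicate 1 and 21.9% to 24.1% in the other 3 libraries. Without OLI1 the remaining frames stood at 84.9 and 33.5 CPM in WT, against 31.3 and 39.3 CPM in mutant.

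**Figure D2:**
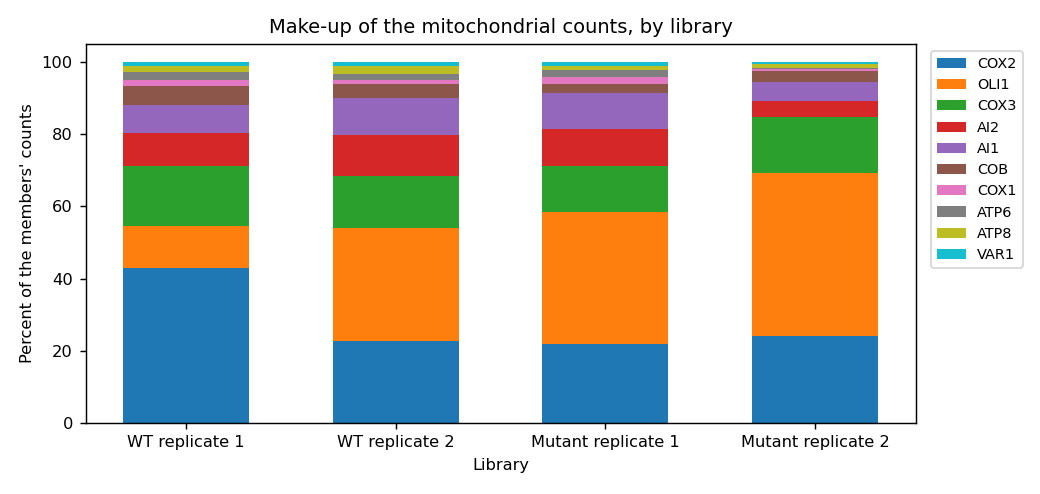
Share of the summed mitochondrial counts held by each frame (percent, vertical axis) in the 4 libraries. COX2 is the biggest block in WT replicate 1 at 43.0%, and OLI1 is in the other 3 libraries at 31.2% to 45.3%.

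Cytochrome c oxidase, which passes electrons to oxygen, has its catalytic core made in the mitochondrion. COX2 encodes the subunit that takes electrons from cytochrome c. WT replicates 1 and 2 had 1226 and 113 of its counts and mutant replicates 1 and 2 had 82 and 49, or 41.3 CPM (95% exact Poisson interval 39.0 to 43.7) and 11.1 CPM (9.13 to 13.3) in WT and 10.8 CPM (8.61 to 13.4) and 17.3 CPM (12.8 to 22.9) in mutant. WT replicate 1 lay 3.73-fold above WT replicate 2, while WT replicate 2 lay between the mutant libraries, so the groups overlapped. WT averaged 26.2 ± 21.4 CPM and mutant 14.1 ± 4.60 CPM (SD, n = 2 each, as for all means below). The log2 fold change, mutant against WT, was -0.93 (SE 0.63; adjusted p = 0.773, edgeR's quasi-likelihood test, Benjamini-Hochberg over all genes), and without WT replicate 1 it was 0.26 (SE 0.27, adjusted p = 0.989, edgeR).

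COX3, another subunit of the core, had 473 and 72 counts in WT and 48 and 31 in mutant. These were 15.9 CPM (14.5 to 17.4) and 7.06 CPM (5.52 to 8.89) in WT and 6.34 CPM (4.67 to 8.41) and 11 CPM (7.45 to 15.6) in mutant. The order of the libraries was that of COX2, with WT replicate 1 at 2.26 times WT replicate 2, and the groups overlapped. The means were 11.5 ± 6.28 CPM in WT and 8.65 ± 3.27 CPM in mutant, and the log2 fold change was -0.48 (SE 0.49, adjusted p = 0.861, edgeR), or 0.17 without WT replicate 1 (adjusted p = 0.993, edgeR). Per coding length, COX2 stood at 2.78 times COX3 in WT replicate 1, 1.68 times in WT replicate 2 and 1.83 and 1.69 times in mutant.

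COX1, the subunit that holds the site of oxygen reduction, had few counts: 48 and 5 in WT and 7 and 1 in mutant. These were 1.62 CPM (1.19 to 2.14) and 0.49 CPM (0.159 to 1.14) in WT and 0.925 CPM (0.372 to 1.9) and 0.354 CPM (0.00896 to 1.97) in mutant. The groups overlapped, and the interval of mutant replicate 2 held the values of all the other libraries. COX1 did not pass the filter on low counts. In a fit without that filter its log2 fold change was -0.65 (SE 0.79, adjusted p = 0.927, edgeR), and leaving out WT replicate 1 as well turned it to 0.62 (SE 1.11, adjusted p = 0.992, edgeR).

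COB encodes cytochrome b, the electron-carrying core of the bc1 complex, and is the one subunit of that complex made in the mitochondrion. It had 150 and 19 counts in WT and 10 and 6 in mutant, or 5.06 CPM (4.28 to 5.93) and 1.86 CPM (1.12 to 2.91) in WT and 1.32 CPM (0.633 to 2.43) and 2.12 CPM (0.779 to 4.62) in mutant. WT replicate 1 was again the highest, at 2.71 times WT replicate 2, and WT replicate 2 lay between the mutant libraries. The means were 3.46 ± 2.26 CPM in WT and 1.72 ± 0.567 CPM in mutant. The log2 fold change was -1.18 (SE 0.64, adjusted p = 0.755, edgeR), and -0.26 without WT replicate 1 (adjusted p = 0.993, edgeR).

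OLI1 encodes subunit 9 of ATP synthase, the small protein whose ring turns in the membrane as protons pass. Alone among the 10 frames it was lowest in WT replicate 1 and highest in mutant replicate 2. Its counts were 330 and 155 in WT and 137 and 92 in mutant, or 11.1 CPM (9.95 to 12.4) and 15.2 CPM (12.9 to 17.8) in WT and 18.1 CPM (15.2 to 21.4) and 32.5 CPM (26.2 to 39.9) in mutant. Both mutant libraries were above both WT libraries, although the intervals of WT replicate 2 and mutant replicate 1 overlapped. WT averaged 13.2 ± 2.88 CPM and mutant 25.3 ± 10.2 CPM.

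The log2 fold change of OLI1 was 0.95 (SE 0.36), and its adjusted p from edgeR was 0.755 (unadjusted 0.0382), so it did not pass. An unadjusted p under 0.05 with a higher level in mutant was met by 1.72% of the 5233 genes tested. Over the 9 alternative fits the log2 fold change ran from 0.44 without mutant replicate 2 to 1.39 without mutant replicate 1. It was 0.66 without WT replicate 1. All these fits reuse the same libraries, and both mutant libraries lay above both WT libraries, so their shared sign adds no support. Relative to COX2, and per coding length, OLI1 stood at 0.881 in WT replicate 1, 4.49 in WT replicate 2 and 5.47 and 6.14 in mutant. Relative to COX3 it stood at 2.45, 7.55, 10.0 and 10.4.

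ATP6, a membrane subunit that forms the path for protons next to the ring, had 62 and 8 counts in WT and 7 and 1 in mutant. These were 2.09 CPM (1.6 to 2.68) and 0.784 CPM (0.339 to 1.55) in WT and 0.925 CPM (0.372 to 1.9) and 0.354 CPM (0.00896 to 1.97) in mutant, and the groups overlapped. ATP8, a small membrane subunit of the same enzyme, had 46 and 11 counts in WT and 4 and 2 in mutant, or 1.55 CPM (1.14 to 2.07) and 1.08 CPM (0.538 to 1.93) in WT and 0.528 CPM (0.144 to 1.35) and 0.707 CPM (0.0857 to 2.56) in mutant. For ATP8 both mutant libraries were below both WT libraries, with overlapping intervals. Neither frame passed the filter. In the fit without it their log2 fold changes were -1.06 for ATP6 (SE 0.73, adjusted p = 0.827, edgeR) and -1.21 for ATP8 (SE 0.64, adjusted p = 0.736, edgeR). Without WT replicate 1 as well they were -0.04 and -0.88.

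VAR1, the protein of the small mitochondrial ribosomal subunit and the one soluble product among the 8 major frames, had 32 and 6 counts in WT and 4 and 1 in mutant. These were 1.08 CPM (0.738 to 1.52) and 0.588 CPM (0.216 to 1.28) in WT and 0.528 CPM (0.144 to 1.35) and 0.354 CPM (0.00896 to 1.97) in mutant. The mutant libraries were below the WT libraries, with overlapping intervals throughout. VAR1 did not pass the filter, and its log2 fold change without it was -0.90 (SE 0.75, adjusted p = 0.875, edgeR), or -0.29 without WT replicate 1 as well.

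AI1 and AI2 encode proteins with reverse transcriptase and maturase activity, read from pre-mRNAs of COX1 in which the intron is still present. AI1 had 218 and 51 counts in WT and 37 and 11 in mutant, or 7.35 CPM (6.40 to 8.39) and 5.00 CPM (3.72 to 6.57) in WT and 4.89 CPM (3.44 to 6.74) and 3.89 CPM (1.94 to 6.96) in mutant. AI2 had 264 and 57 counts in WT and 38 and 9 in mutant, or 8.90 CPM (7.86 to 10.0) and 5.59 CPM (4.23 to 7.24) in WT and 5.02 CPM (3.55 to 6.89) and 3.18 CPM (1.46 to 6.04) in mutant. In both frames the mutant libraries were below the WT libraries, but the intervals of WT replicate 2 overlapped those of both mutant libraries. The log2 fold changes were -0.47 for AI1 (SE 0.33, adjusted p = 0.791, edgeR) and -0.76 for AI2 (SE 0.37, adjusted p = 0.755, edgeR), or -0.13 and -0.33 without WT replicate 1.

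The intron frames had levels near each other in each library. Per coding length, AI2 stood at 1.18 and 1.09 times AI1 in WT and 1.00 and 0.799 times in mutant. AI1 had more counts than COX1 in every library and stood above it per whole coding length by 2.91-fold and 6.54-fold in WT and 3.39-fold and 7.05-fold in mutant. Per unshared base, a measure chosen after the data were seen, these ratios were 1.23 and 2.76 in WT and 1.43 and 2.98 in mutant. Outside WT replicate 1 they rest on 5, 7 and 1 counts of COX1.

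**Figure D3:**
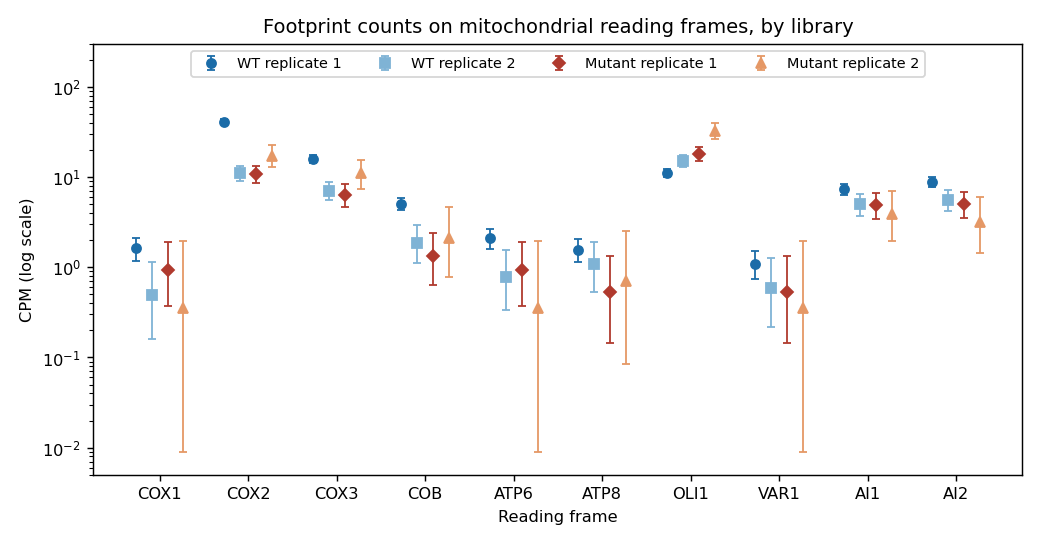
CPM of each mitochondrial reading frame (vertical axis, log scale) in each of the 4 libraries, with 95% exact Poisson intervals for counting error. WT replicate 1 is the highest library for 9 of the 10 frames. OLI1 is lowest there, at 11.1 CPM, and highest in mutant replicate 2, at 32.5 CPM.

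Across strains, none of the 10 frames passed the test with all libraries. The fit kept 5233 genes and with them 6 frames (AI1, AI2, COB, OLI1, COX2 and COX3). Of the genes tested 0.0% were called higher and 0.0% lower. The smallest adjusted p from edgeR was 0.755, and 285 genes stood at an unadjusted p under 0.05, OLI1 being the one frame among them. DESeq2 called 4 genes and no frame. The 6 frames had a median log2 fold change of -0.62, with 5 below 0, beside -0.01 over all genes tested. An exact permutation test of 2 against 2 libraries cannot give a two-sided p below 0.333.

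The groups of CPM values did not overlap for 5 of the 10 frames. AI1, AI2, ATP8 and VAR1 were lower in mutant, 4 of 10 beside 17.8% of the 5854 genes with a count, and OLI1 was higher, 1 of 10 beside 16.0%. WT replicate 1 was the highest library for 9 of 10 frames, beside 34.8% of genes.

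Leaving out either WT library gave different results for these frames. Without WT replicate 1, edgeR called 0.325% of genes higher and 0.42% lower, none of them a mitochondrial frame, and the median log2 fold change of the 6 frames was 0.02. Without WT replicate 2, it called 4.35% of genes higher and 14.9% lower, and 5 of the 9 frames tested were among them. OLI1 was called higher (log2 fold change 1.11, SE 0.23, adjusted p = 1.39e-05, edgeR). COX2 (-1.64, adjusted p = 7.29e-13), COB (-1.69, adjusted p = 0.00088), COX3 (-1.0, adjusted p = 0.00119) and AI2 (-1.0, adjusted p = 0.0103) were called lower by edgeR.

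Each of these fits had a lone WT library, taken to vary as the mutant pair does. The calls without WT replicate 2 therefore compare WT replicate 1 with both mutant libraries. Between WT replicate 1 and WT replicate 2, of the same strain, COX2 differed 3.73-fold, COB 2.71-fold and COX3 2.26-fold, while OLI1 in WT replicate 1 stood at 0.732 of its level in WT replicate 2.

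Set against the mean of the other 3 libraries, WT replicate 1 held 3.16 times as much COX2, 3.04 times ATP6, 2.86 times COB and 2.74 times COX1. The ratios were 2.20 for VAR1, 2.01 for ATP8, 1.96 for COX3, 1.94 for AI2 and 1.6 for AI1. Among 4595 nuclear genes averaging at least 100 counts, these ratios lay between percentiles 87.0 (AI1) and 98.3 (COX2). Of the frames, only COX2, COX3 and OLI1 averaged that many counts, so the others are set against genes with less counting error. OLI1 stood at 0.507, at percentile 0.0871.

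Nuclear genes for proteins with a hydrophobic segment were also higher in WT replicate 1. The median ratio was 1.28 over 1269 such genes and 0.957 over the 3326 others, and such genes held 20.2% of the counts in WT replicate 1 and 16.2% to 16.8% in the other libraries. All of the mitochondrial frames except VAR1 have such a segment, OLI1 included, whose ratio was below 1. The part of this difference in the values of the mitochondrial frames was not tested.

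**Figure D4:**
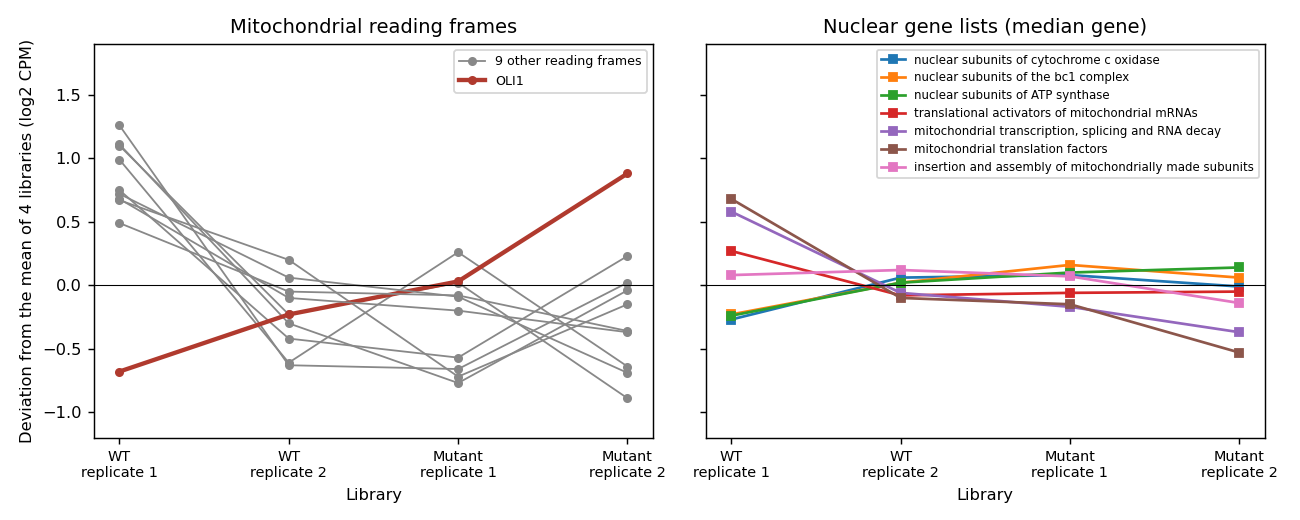
Deviation of log2 CPM from the mean of the 4 libraries (vertical axis), for the 10 mitochondrial frames (left, OLI1 in red) and for the median gene of 7 lists of nuclear genes (right), where lines join values of the same frame or list and the libraries have no order. In WT replicate 1 the 9 frames other than OLI1 have a median of 0.75 and OLI1 lies at -0.68.

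Levels per coding length put the frames in an order led by OLI1. It had 83.3 CPM per kilobase on average (48.1 to 141 over the libraries), at percentile 76.9 of 5917 genes. COX2 followed with 26.6 (14.3 to 54.7), COX3 with 12.4 (7.83 to 19.7) and ATP8 with 6.57 (3.59 to 10.5), all in CPM per kilobase. COB (2.24), AI2 (2.21), AI1 (2.11) and ATP6 (1.33) came next, and VAR1 (0.532) and COX1 (0.527) were last, at percentile 10.5.

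The ranges of all neighbours in this order overlapped, so none was set apart by the spread over libraries. The order of some neighbours nonetheless held within every library: COX2 above COX3, COX3 above ATP8, ATP8 above COB, AI1 above ATP6 and ATP6 above VAR1. In mutant replicate 2, however, ATP6 and VAR1 had 1 count each, ATP8 had 2 and COB had 6. OLI1 was above COX2 in 3 of 4 libraries, the exception being WT replicate 1. The places of COX1 and COB depend on the shared bases. Divided by unshared bases only, a measure chosen after the data were seen, COX1 had 1.34 and COB 6.44 CPM per kilobase, while AI1 (2.26), AI2 (2.4) and COX2 (27.3) moved little. Across the 10 frames, Pearson's r between log2 level and GC content was 0.51 and Spearman's rho 0.48, over points that share the same 4 libraries.

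Each respiratory complex joins these products to subunits made in the cytosol, whose counts were far higher. The 9 nuclear subunits of cytochrome c oxidase had median levels of 388 and 473 CPM per kilobase in WT and 498 and 466 in mutant, where COX2, the highest mitochondrial partner, had 54.7, 14.7, 14.3 and 22.9. For the bc1 complex the medians of 9 nuclear subunits were 453, 527, 595 and 564 CPM per kilobase beside 4.37, 1.61, 1.14 and 1.83 for COB. These COB levels are over all its coding bases, with a mean of 2.24. Over unshared bases alone the mean was 6.44 CPM per kilobase. For ATP synthase the medians of 14 nuclear subunits were 351, 403, 415 and 414 beside 48.1, 65.8, 78.3 and 141 for OLI1. OLI1 thus came closest, in mutant replicate 2, to the level of its partners, the lowest of which lay below it.

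Relative to their nuclear partners, the oxidase frames were highest in WT replicate 1. The summed CPM of the nuclear oxidase subunits was 21.4 times that of COX1, COX2 and COX3 in WT replicate 1, 82.7 times in WT replicate 2 and 89.0 and 57.1 times in mutant. For ATP synthase, whose nuclear and mitochondrial sums were both lowest in WT replicate 1, this ratio was at least 245 in 3 libraries and 148 in mutant replicate 2. Nuclear and mitochondrial mRNAs are read by different ribosomes, and how well each kind was recovered in each library is not given. These ratios therefore do not give amounts of protein made, and the part of recovery in their differences between libraries was not tested.

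**Figure D5:**
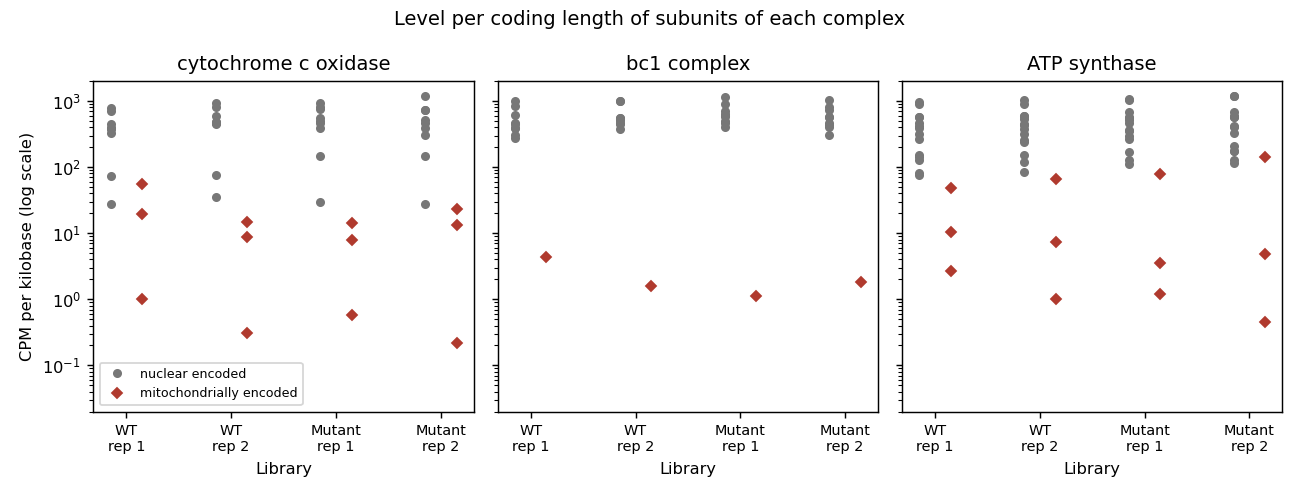
Level per coding length (CPM per kilobase, log scale) of the nuclear subunits (grey circles) and mitochondrial subunits (red diamonds) of 3 respiratory complexes in each library. Coding lengths include the bases that COX1 and COB share with intron frames. The mitochondrial points lie below the nuclear medians of 351 to 595 in every library, with OLI1 reaching 141 in mutant replicate 2.

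None of the nuclear genes that serve these frames passed the test in either direction, in 7 lists chosen by function (0 of 91 called by edgeR with all libraries). All 14 nuclear subunits of ATP synthase lay above 0, with a median log2 fold change of 0.28 beside -0.01 over all genes; ATP20 had 0.53, ATP17 0.40 and ATP15 0.29 (0.45, 0.13 and 0.31 without WT replicate 1). Of the 9 nuclear bc1 subunits 8 lay above 0 (median 0.27), with QCR2 at 0.33 and RIP1 and QCR7 at 0.27 each (0.42, 0.18 and 0.15 without WT replicate 1). Of the 9 nuclear oxidase subunits 6 lay above 0 (median 0.26), led by COX7 at 1.00 (SE 0.20, adjusted p = 0.755, edgeR), with COX8 at 0.58 and COX6 at 0.33. Without WT replicate 1, COX7 was called at 0.97 (adjusted p = 0.0125, edgeR), while COX8 had 0.39 and COX6 0.20, neither called. With all libraries OLI1 therefore had the sign of its nuclear partners, while COX2, COX3 and COB had the opposite sign to theirs. In the fit without the filter, ATP6 (-1.06), ATP8 (-1.21) and COX1 (-0.65) also had the opposite sign to their partners. Without WT replicate 1 the medians were 0.13 for ATP synthase, 0.11 for bc1 and 0.12 for the oxidase. COX2 and COX3 were then above 0 too, while COB was at -0.26. With the filter also left out, ATP6 was at -0.04, ATP8 at -0.88 and COX1 at 0.62.

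With all libraries, mitochondrial translation factors and genes of mitochondrial transcription, splicing and RNA decay lay mostly below 0, like the frames other than OLI1. All 8 mitochondrial translation factors were below 0 (median -0.56), with summed CPM of 593 and 308 in WT and 272 and 228 in mutant. Among them TUF1, the elongation factor that brings aminoacyl-tRNA, had a log2 fold change of -0.90, MEF1, the translocase, -1.2 and MEF2, which acts in ribosome recycling, -1.13, and without WT replicate 1 these were -0.27, -0.12 and -0.19. Of 12 genes of mitochondrial transcription, splicing and RNA decay 10 were below 0 (median -0.41). NAM2, the mitochondrial leucyl-tRNA synthetase, which also takes part in splicing of COB and COX1 introns, stood at 60.1 and 16.1 CPM in WT against 15.2 and 12.0 CPM in mutant (log2 fold change -1.47, SE 0.60, adjusted p = 0.755, edgeR), and without WT replicate 1 its log2 fold change was -0.19. SUV3, a helicase of RNA turnover, had -0.94 and PET127, which acts in RNA processing, -0.91 (-0.33 and -0.39 without WT replicate 1). In both lists WT replicate 1 was the high library, and without it the medians were -0.23 and -0.09.

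The 17 translational activators were divided, with 7 above 0 and 10 below (median -0.09, and -0.03 without WT replicate 1). MSS51, the activator of COX1 mRNA, had a log2 fold change of -0.62, ATP22, which serves ATP6 and ATP8, -0.72 and ATP25, needed for OLI1 mRNA, -0.62. Without WT replicate 1 these were -0.27, -0.22 and -0.18. Of 22 genes for insertion and assembly 15 were below 0 (median -0.11, and -0.18 without WT replicate 1). PNT1, which acts in membrane insertion, had -0.67, the copper chaperone COX17 -0.46 and COX15 of heme A synthesis -0.95 (-0.47, -0.57 and -0.19 without WT replicate 1).

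Some nuclear genes had a profile over the 4 libraries close to that of the summed frames. The sum joins OLI1, with 92 of the 203 counts in mutant replicate 2, to frames of other profiles. A gene close to the sum therefore need not resemble any single frame. Likeness was the root mean square difference in deviation of log2 CPM over 4 libraries, and 80 of 5227 nuclear genes lay within 0.2. How many genes would lie this near by chance was not tested. The closest were YJL163C (0.0455), with 6.91 and 3.72 CPM in WT against 3.57 and 4.95 CPM in mutant, MNN14 (0.0478) and DAL2 (0.0694).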

How the data were processed

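The authors deposited raw counts, whole numbers with no normalization, for each coding sequence in 4 ribosome profiling libraries. Bowtie2, DESeq2 and the build sacCer3 are named in the submitters' processing notes. Tool versions, counter, length filter, strand setting and the treatment of reads with several matches were not given in the sources used here, and they decide where reads on shared bases went. The header had single tabs and the data lines doubled tabs, so the library of every value rests on assigning names in order to filled fields. Of 6600 rows 746 had no count, and 5917 matched RefSeq R64 by systematic name, which gave coordinates and lengths.

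Members and lists were chosen with earlier results of these data known. The genes named were all 10 frames, OAZ1, the 3 genes of each list with the smallest unadjusted p and the 3 nuclear genes most like the summed frames. Genes were tested with edgeR 4.0.16 (R 4.3.3; quasi-likelihood, two-sided, TMM, filterByExpr with minimum count 10 and minimum total 15, Benjamini-Hochberg at 0.05), after the test was checked on simulated data. That simulation gave no library a deviation of its own, so it does not bear on a library unlike the rest. Alternatives were DESeq2 1.42.0, other scalings, no filter, a replicate block and leaving out each library. CPM values are plain shares of the total. Likeness used an offset of 0.5 counts. A hydrophobic segment is a 19-residue window with mean Kyte-Doolittle hydropathy of at least 1.6. Tables used Python 3.11.15, NumPy 2.4.6, pandas 2.3.3, SciPy 1.17.1 and Biopython 1.88, and plots matplotlib 3.10.9.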

Additional observations from a re-analysis of the deposited data

How the results depend on the processing

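Over 9 alternative fits, 47 of 54 values of single frames kept their direction and side of the threshold. All these fits reuse the same libraries, so the 47 add no support. Among them is COX3 without mutant replicate 1, whose log2 fold change was -0.0. The 5 that passed the threshold in an alternative alone and the 2 that reversed came from leaving out a WT library. Leaving out 1 library gave 0 to 1008 genes called (39 without WT replicate 1) and 0 to 5 mitochondrial frames. The log2 fold change of COX2 ran from -1.64 to 0.26 and that of COX3 from -1.0 to 0.17, the positive values being those without WT replicate 1. Without the filter on low counts, leaving out WT replicate 1 as well turned COX1 from -0.65 to 0.62, an alternative chosen after the data were seen. DESeq2 called 4 genes, against 0 by edgeR, and no frame. Counting COX1, AI1 and AI2 as 1 locus with the highest of their counts gave summed shares of 87.1 CPM and 43.2 CPM in WT and 43.6 CPM in mutant replicate 1. With the replicate block 0 genes were called, with a smallest adjusted p of 0.21 (edgeR). Deviations of same-numbered libraries had r = 0.0805 over 4603 genes. With 2 libraries per group and WT replicate 1 unlike the rest, this r cannot show whether the numbers pair the samples. Depth limits COX1, ATP6, ATP8 and VAR1 most, which had 1 or 2 counts in mutant replicate 2.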

Other observations

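The table held 18 further rows of mitochondrial name. Of these 7 had no count in any library, and none of the 7 is in the RefSeq annotation. The other 11 summed to 135, 38, 22 and 5 counts in WT replicate 1, WT replicate 2, mutant replicate 1 and mutant replicate 2, or 4.52%, 7.10%, 5.56% and 2.4% of all counts on mitochondrial rows. SCEI, the homing endonuclease of the large ribosomal RNA intron, had the most, with 29, 7, 7 and 0 counts in that order. The intron frames of COX1 after AI2 had far fewer counts than AI1 and AI2: AI3 had 12, 2, 4 and 1, AI4 had 17, 7, 1 and 0, and AI5_BETA had 7, 2, 0 and 0. Those of COB had 15, 3, 3 and 0 for BI2 and 15, 4, 3 and 0 for BI4. Q0297, which the annotation does not hold, had 19, 7, 0 and 3.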
